A study of Mus musculus with 48 samples.

Results

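The 36 imprinted genes described here were the rows of a deposited cortical expression table that carried the symbols of a list of imprinted genes, 36 of the 24444 genes in the table. All 36 symbols were found. By the parental copy that is usually active, 22 were treated as paternally expressed, 10 as maternally expressed and 4 (Grb10, Gnas, Inpp5f and Copg2) as mixed, since their active copy depends on the tissue or the transcript. Igf2 was kept as paternal and Igf2r and Ube3a as maternal, although both copies of these genes are active in some brain cells. In the mm9 genome build, 34 had an annotated position, on 11 chromosomes, with 13 of them on chromosome 7.

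An imprinted gene is transcribed mainly from the copy inherited from one parent, because DNA methylation set in the egg or the sperm marks the copies differently at an imprinting control region. Many imprinted genes act on growth before birth, with paternally expressed genes such as Igf2 promoting it and maternally expressed genes such as Cdkn1c and Igf2r restraining it, and several are kept active in neurons, where loss of the paternal Prader-Willi genes or of maternal Ube3a causes a neurodevelopmental syndrome. CHD8, the chromatin remodeler mutated in these mice, has been reported to bind CTCF, the insulator protein that occupies the H19/Igf2 control region.

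The study profiled the RNA of the cerebral cortex, from one hemisphere, of 48 male C57BL/6J mice. Wild-type (WT) mice were compared with mice heterozygous for the Chd8 V986* allele (HET), in which an insertion made with CRISPR/Cas9 places tandem stop codons at V986 and E987 of one copy. The line goes back to a single founder backcrossed to C57BL/6J, WT littermates served as controls, and neither genotype received a treatment. Each genotype was sampled in the embryo at day 14.5 (E14.5) and in adults of 1 month, 6 months and 12 months, with 6 mice per group. Because every mouse was C57BL/6J, the parental copies could not be told apart, and each value is the sum of both.

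Levels were deposited after the variance-stabilizing transformation (VST) of DESeq2. This scale is close to log2, so that a gene far above the floor doubles when its value rises by 1, while changes of genes near the floor come out too small. The floor, the most frequent value, was 2.1433. The table holds no reads, so no counting error could be given for a value and its precision is given by the spread between mice. VST values are not scaled by gene length, and no levels were compared between genes. Differences are given as VST units with their standard errors (SE), and a gene was called changed at an adjusted p below 0.1 in limma. In these bulk samples, fewer cells of a type and less RNA per cell cannot be told apart.

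Markers were examined for the tissue and its neighbours. All 7 markers of cortical excitatory neurons were well above the floor in every group. At E14.5, the mean of 22 midbrain, hindbrain and spinal cord markers ranged from 3.08 to 6.57 in WT mice and from 3.01 to 4.11 in HET mice, with 4 and 12 of the 22 markers within 0.5 of the floor. The mean of 12 hypothalamus markers ranged from 2.61 to 4.68 over the adult groups, with 3 of the 12 within 0.5 of the floor in each. The value of 4.68 was that of replicate 1 of the 6-month WT mice.

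Chd8 was lower in HET mice at every age, with no overlap between genotypes. At 1 month, it lay at 11.55, 11.73 and 11.87 (lowest, median and highest) in WT mice and at 10.94, 11.05 and 11.11 in HET mice. The difference was −0.63 (SE 0.08) at E14.5, −0.67 (SE 0.05) at 1 month, −0.64 (SE 0.04) at 6 months and −0.54 (SE 0.06) at 12 months. Its adjusted p was 0.026 at E14.5 and 0.0026 or lower at the adult ages.

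The genotype comparison asked whether imprinted genes differed between HET and WT cortex at any age. Among the 36 genes, Ndn was the only one called, at 1 month. Ndn encodes necdin, a MAGE family protein that restrains proliferation and supports the survival of neurons, and it is one of the paternally expressed genes lost in Prader-Willi syndrome. At 1 month, Ndn lay at 11.48, 11.61 and 11.74 in the 6 WT mice and at 11.32, 11.36 and 11.46 in the 6 HET mice. Each HET mouse was below each WT mouse. The difference was −0.24 (SE 0.04, 95% interval −0.32 to −0.15, adjusted p = 0.042), and 0.139% of the 17221 genes tested at 1 month were called. Groups without overlap were found for 0.825% of all genes tested and, among the imprinted genes, for Ndn alone.

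At the other ages, Ndn was also lower on average in HET mice, but with overlap. At E14.5, it lay at 12.56, 13.17 and 13.34 in WT mice and at 12.66, 12.81 and 13.05 in HET mice, a difference of −0.29 (SE 0.12, adjusted p = 0.98). At 6 months, it lay at 11.22, 11.50 and 11.71 in WT mice and at 11.10, 11.33 and 11.48 in HET mice, a difference of −0.19 (SE 0.08, adjusted p = 0.62). At 12 months, the values were 11.33, 11.44 and 11.88 in WT mice and 11.17, 11.31 and 11.46 in HET mice, a difference of −0.20 (SE 0.08, adjusted p = 0.36). None of these was called, and the unadjusted p at E14.5, 6 and 12 months was 0.023, 0.032 and 0.026. Among replicates 1 to 3, the difference was negative at each age and ranged from −0.37 to −0.12. Among replicates 4 to 6, it was also negative at each age and ranged from −0.27 to −0.22. These sets split the same mice after the values were known, so they are a description and not a test.

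Averaged over the 4 ages in one fit of the 48 mice, a comparison added after the values were known, Ndn was lower in HET mice, with a difference of −0.23 (SE 0.05, 95% interval −0.32 to −0.14, adjusted p = 0.0018). In this fit, 2 of the 35 imprinted genes tested were called, both lower and both paternal, beside 3% of all genes. The second was Mkrn3. The call of Ndn at 1 month was lost with a meningeal marker mean as a covariate (−0.22, adjusted p = 0.16), without the intensity trend (adjusted p = 0.13), in the fit of all 48 mice (adjusted p = 0.55) and without WT replicate 2, WT replicate 6, HET replicate 4 or HET replicate 5 of that age (adjusted p = 0.1, 0.11, 0.15 and 0.12). The averaged difference was called without each of the 48 mice in turn, at adjusted p values from 2.3e-05 to 0.0037.

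Mkrn3, a makorin ubiquitin ligase that holds back the onset of puberty, lies next to Ndn and Magel2. At 1 month, Mkrn3 lay at 5.40, 5.74 and 6.10 in WT mice and at 5.12, 5.27 and 5.65 in HET mice, a difference of −0.43 (SE 0.14, adjusted p = 0.38). At 6 months, it lay at 4.47, 5.05 and 5.30 in WT mice and at 3.74, 4.33 and 4.76 in HET mice, a difference of −0.66 (SE 0.19, adjusted p = 0.38). At both ages, 4 of 6 HET mice were below all WT mice and the groups overlapped. At E14.5 and 12 months, the difference was −0.06 and 0.04. The average over the 4 ages was −0.28 (SE 0.07, adjusted p = 0.022), and its adjusted p without each mouse in turn ranged from 0.0079 to 0.037. The 6-month difference was called in the fit of all 48 mice (adjusted p = 0.042).

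The promoters of the neighbours Ndn, Magel2 and Mkrn3 are shown because these genes share one paternally expressed cluster and include both genes called in the averaged comparison. Each sequence is the 250 bases before the annotated start in mm9, printed 5′ to 3′ along the gene's strand, with CG dinucleotides, the sites of DNA methylation, in capitals. They hold 5, 7 and 10 CG dinucleotides, against a median of 9 over 20513 promoters of the same length and of 10 over the 34 imprinted genes with an annotated start. Methylation was not measured.
Ndn, chr7:69492913-69493162, plus strand: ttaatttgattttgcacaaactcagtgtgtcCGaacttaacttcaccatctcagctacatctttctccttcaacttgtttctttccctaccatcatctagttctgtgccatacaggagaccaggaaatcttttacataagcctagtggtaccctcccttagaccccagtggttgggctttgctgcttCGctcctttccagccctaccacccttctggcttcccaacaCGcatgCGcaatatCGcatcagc
Magel2, chr7:69521615-69521864, plus strand: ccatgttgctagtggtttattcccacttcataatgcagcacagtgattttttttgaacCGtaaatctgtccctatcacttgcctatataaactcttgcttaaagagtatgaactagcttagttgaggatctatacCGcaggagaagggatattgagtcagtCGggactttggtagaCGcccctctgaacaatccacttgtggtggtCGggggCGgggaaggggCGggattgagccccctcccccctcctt
Mkrn3, chr7:69565040-69565289, minus strand: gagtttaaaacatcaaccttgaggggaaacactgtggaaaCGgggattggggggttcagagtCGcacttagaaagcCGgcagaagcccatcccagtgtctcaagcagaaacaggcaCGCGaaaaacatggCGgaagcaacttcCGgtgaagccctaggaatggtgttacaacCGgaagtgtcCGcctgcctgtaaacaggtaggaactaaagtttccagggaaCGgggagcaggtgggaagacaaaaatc

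The other genes of this domain on chromosome 7 were not called between genotypes. Magel2, another MAGE protein, which works with ubiquitin ligases in endosomal sorting, varied widely between adult mice. At 1 month it lay at 5.30, 6.54 and 7.14 in WT mice and at 5.35, 5.87 and 6.71 in HET mice, a difference of −0.33 (SE 0.31, adjusted p = 0.81). The averaged difference of Magel2 was −0.17 (SE 0.14). Snrpn, which encodes the neuronal splicing protein SmN, had an averaged difference of −0.09 (SE 0.03, adjusted p = 0.12), which passed the threshold without replicate 6 of the E14.5 WT mice (−0.11, adjusted p = 0.0036). Ube3a, the maternally expressed ubiquitin ligase of Angelman syndrome, had an averaged difference of 0.00 (SE 0.04). Within 3000000 bases on either side of Ndn, 15 genes outside the list were tested. In limma, 0 of them were called at any age or in the average, beside 0.00593% to 3% of all genes. At most 2 had an unadjusted p below 0.05, beside 4.56% to 12.5% of all genes. For 15 genes, 0 calls is near these shares. Their averaged differences ranged from −0.14 to 0.06. Among the 15 was Peg12, another imprinted gene (−0.52, SE 0.27 at 6 months).

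**Figure D1:**
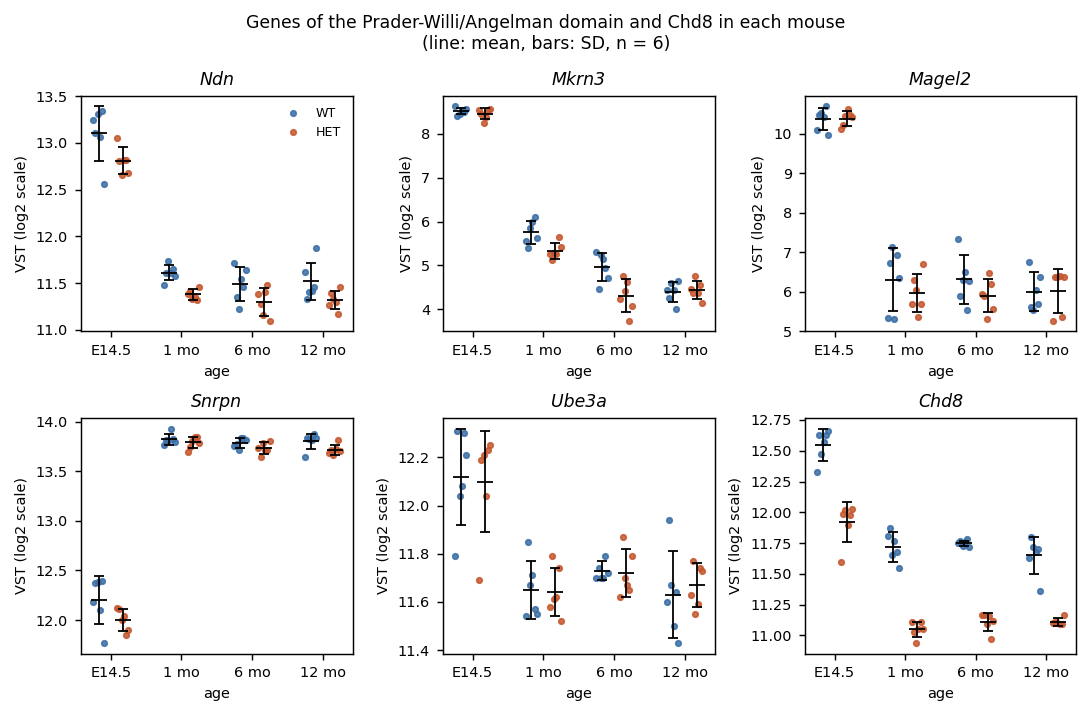
VST values (log2 scale, vertical axis) of 5 genes of the Prader-Willi/Angelman domain and of Chd8 in each of 6 WT (blue) and 6 HET (orange) mice at 4 ages (horizontal axis), with the mean as a line and the SD as bars. The 6 HET mice lie below the 6 WT mice for Ndn at 1 month and for Chd8 at all ages, whereas Ube3a overlaps at each age.

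Hypothalamus markers were examined beside the Prader-Willi genes, which are highly expressed in the hypothalamus. Their mean ranged from 2.92 to 3.71 in WT mice and from 2.66 to 3.85 in HET mice at 1 month. With this mean as a covariate, Ndn at 1 month differed by −0.23 (adjusted p = 0.049). The group averages of the marker mean were 3.19 in WT and 3.13 in HET mice, so this covariate could change the difference little. The part of hypothalamic tissue was not tested.

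No other gene of the 36 was called between genotypes at any age. At E14.5, 0 of 36 were called (0.00593% of all genes) and 2 had an unadjusted p below 0.05 (4.56% of all genes), Ndn and Cdkn1c. Cdkn1c, which encodes the cell cycle inhibitor p57, lay at 11.87, 12.14 and 12.44 in WT embryos and at 11.49, 11.97 and 12.09 in HET embryos, a difference of −0.23 (SE 0.10, adjusted p = 0.98). At this age, the next largest differences were those of Nap1l5 (−0.25, SE 0.19), Meg3 (−0.24), Rian (−0.24, SE 0.13) and Snrpn (−0.20, SE 0.10), and each overlapped. The hindbrain marker mean had a median of 4.28 in WT and of 3.36 in HET embryos, and with it as a covariate the differences of Ndn, Cdkn1c and Nap1l5 were −0.18, −0.09 and 0.01. In 28 of the 36 genes the HET mean was below the WT mean, beside 49.6% of all genes, and the median over the 36 was −0.07. This share was 28 of 35 at 1 month (51.4% of all genes), 20 of 35 at 6 months (50.4%), 15 of 35 at 12 months (48.6%) and 26 of 35 in the average over ages (51.6%). Within genotypes at E14.5, the slope of level on the hindbrain marker mean was positive in 27 of the 36 genes, beside 8142 of all 16877. The median slope was 0.07, beside −0.003 over all genes. In limma, 12 of the 36 slopes had an unadjusted p below 0.05, all positive, beside 2797 over all genes, 1616 of them positive. The part of hindbrain tissue in the shift of the 36 was not tested.

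At 1 month, 1 of 35 was called and 3 had an unadjusted p below 0.05 (8.80% of all genes), Ndn, Mkrn3 and Slc38a4. Slc38a4, an amino acid transporter, lay at 5.05, 5.47 and 5.74 in WT mice and at 4.68, 4.99 and 5.52 in HET mice, a difference of −0.41 (SE 0.17, adjusted p = 0.50). The largest difference was that of H19, −0.65 (SE 0.37, adjusted p = 0.64), in which 1 WT mouse at 7.21 stood above the other 5, at 4.43 to 5.39. Igf2 differed by −0.43 and the sign of this value turned with the meningeal marker mean as a covariate (0.08). The meningeal marker mean at 1 month ranged from 7.61 to 8.29 in WT mice and from 6.81 to 8.13 in HET mice.

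At 6 months, 0 of 35 were called (0.0927% of all genes) and 3 had an unadjusted p below 0.05 (7.59% of all genes), Mkrn3, Ndn and Rian. Rian, a noncoding RNA of the maternal cluster on chromosome 12, lay at 12.75, 13.05 and 13.09 in WT mice and at 12.63, 12.84 and 13.08 in HET mice, a difference of −0.15 (SE 0.07, adjusted p = 0.63). Asb4 (−0.46), Magel2 (−0.41), Dlk1 (0.38) and Cdkn1c (−0.25) had the next largest differences, and each overlapped.

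At 12 months, 0 of 35 were called (0.0463% of all genes) and 6 had an unadjusted p below 0.05 (11.6% of all genes). Asb4, an ankyrin repeat protein of a ubiquitin ligase complex, lay at 4.17, 5.79 and 6.59 in WT mice and at 3.94, 4.67 and 4.97 in HET mice, a difference of −1.05 (SE 0.34, adjusted p = 0.28). Airn, the noncoding RNA antisense to Igf2r, lay at 3.60, 3.86 and 4.41 in WT mice and at 4.22, 4.46 and 4.86 in HET mice, a difference of 0.57 (SE 0.18, adjusted p = 0.27). Nnat, neuronatin, a small protein of the endoplasmic reticulum membrane, lay at 11.56, 11.99 and 12.77 in WT mice and at 11.54, 11.65 and 11.82 in HET mice, a difference of −0.42 (SE 0.15, adjusted p = 0.32). All 3 genes overlapped between genotypes. Without replicate 3 of the 12-month WT mice, Asb4 (−1.35, adjusted p = 0.045) and Nnat (−0.52, adjusted p = 0.098) were called. That mouse had the lowest hypothalamus marker mean of its group, 2.77. The range at that age was 2.77 to 3.93 in WT mice and 2.61 to 3.86 in HET mice. The part of tissue content in these calls was not tested. The other genes with an unadjusted p below 0.05 were Ndn, Copg2 (0.12, SE 0.05) and Rian (−0.18, SE 0.08). H19 (0.51, SE 0.25), Peg10 (−0.37, SE 0.19) and Igf2 (0.31, SE 0.17) followed among the largest differences.

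In the average over the 4 ages, 7 of 35 had an unadjusted p below 0.05, beside 12.5% of all genes. Those not called were Copg2, a coatomer subunit (0.07, SE 0.02), Rian (−0.16, SE 0.05, adjusted p = 0.11), Snrpn, Asb4 (−0.37, SE 0.18) and Slc38a4 (−0.17, SE 0.09). The adjusted p of Copg2, 0.1 when rounded, was above the threshold, and it fell below the threshold when any 1 of 9 mice was left out, reaching 0.041 without replicate 6 of the E14.5 WT mice. Peg10 averaged −0.16 (SE 0.09), Igf2 −0.01 (SE 0.12) and H19 −0.03 (SE 0.14), and none of the 3 was called. Without replicate 6 of the E14.5 WT mice, in which several imprinted genes stood apart, Rian (−0.19, adjusted p = 0.015), Nap1l5 (−0.12, adjusted p = 0.027), Snrpn and Copg2 were called beside Ndn and Mkrn3. That embryo had the lowest hindbrain (3.08) and hypothalamus (4.24) marker means of the WT embryos. It also had the highest mean of cortical excitatory neuron markers (11.93). The hindbrain marker median was 3.36 in HET embryos, and the part of tissue content in these calls was not tested.

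Paternally and maternally expressed genes were compared by their medians. At E14.5, the median genotype difference was −0.05 over 22 paternal and −0.10 over 10 maternal genes. At 1 month it was −0.06 and −0.07, at 6 months 0.00 and −0.07, and at 12 months 0.02 and 0.02, with 9 maternal genes tested in adults, where Phlda2 was near the floor. The 4 mixed genes had medians from 0.02 to 0.05. The paternal minus maternal difference of these medians was 0.05, 0.02, 0.07 and 0.00 in size, and it was not tested.

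**Figure D2:**
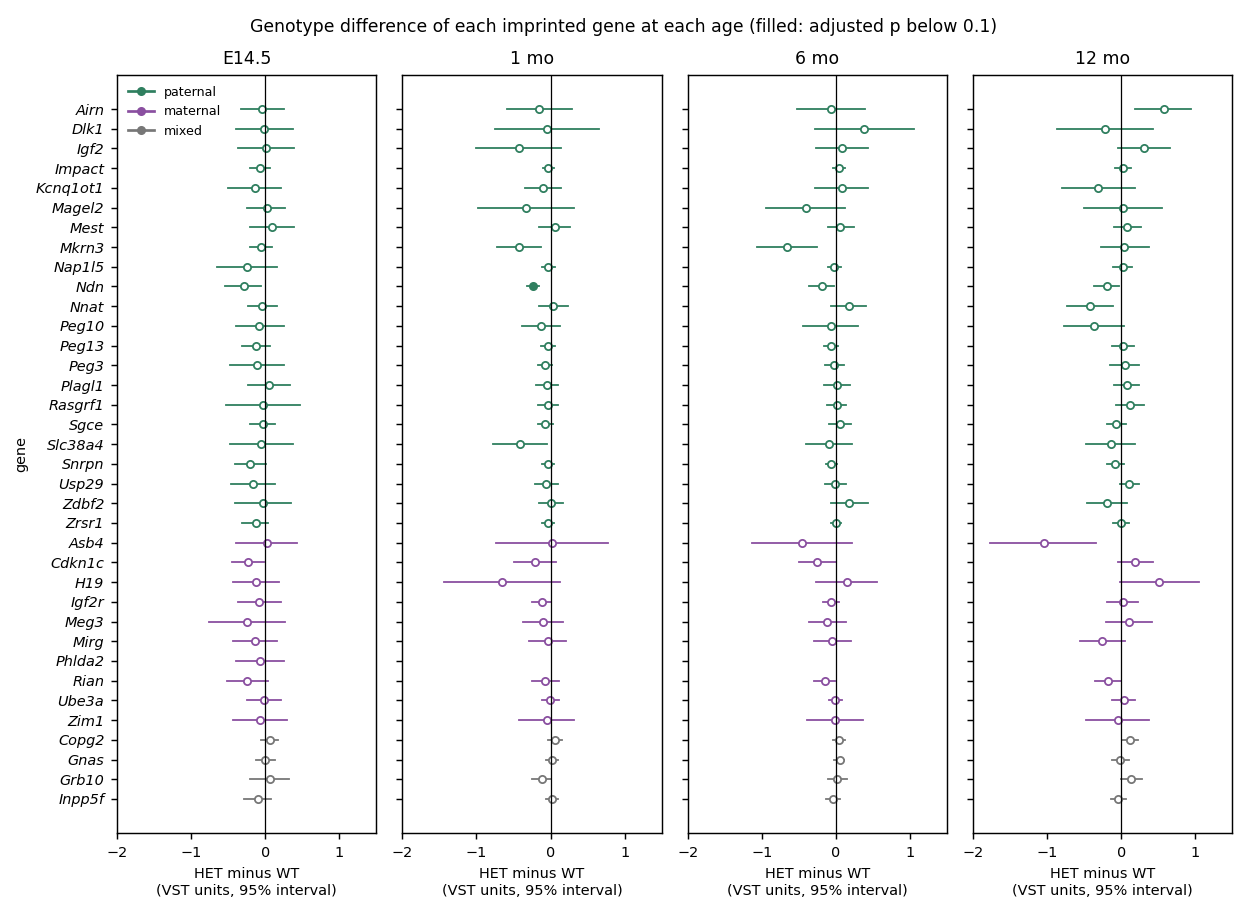
HET minus WT difference (horizontal axis, VST units) of each imprinted gene (vertical axis) at 4 ages, with 95% intervals as lines, paternal genes in green, maternal in purple and mixed in grey, and filled points for genes called. The only filled point is Ndn at 1 month, at −0.24, and the widest departure is that of Asb4 at 12 months, at −1.05.

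The step from E14.5 to 1 month had far larger effects than genotype. From E14.5 to 1 month in WT mice, 32 of 36 imprinted genes were called, 9 higher and 23 lower, beside 85.7% of the 17285 genes tested, 43.4% higher and 42.3% lower. In HET mice, 34 of 36 were called, 11 higher and 23 lower, beside 86.1% of all genes, 43.7% higher and 42.4% lower. The share called was near that of all genes. The median change over the 36 genes in WT mice was −1.01, beside 0.02 over all genes. By class, 5 paternal genes rose and 13 fell, 3 maternal genes rose and 7 fell, and 1 mixed gene rose and 3 fell. The class medians were −1.17 for paternal and −0.91 for maternal genes in WT mice, and −1.09 and −0.88 in HET mice. The gap between these medians depended on which genes were tested, and was −0.02 in WT mice when only genes at least 1.5 above the floor were kept.

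**Figure D3:**
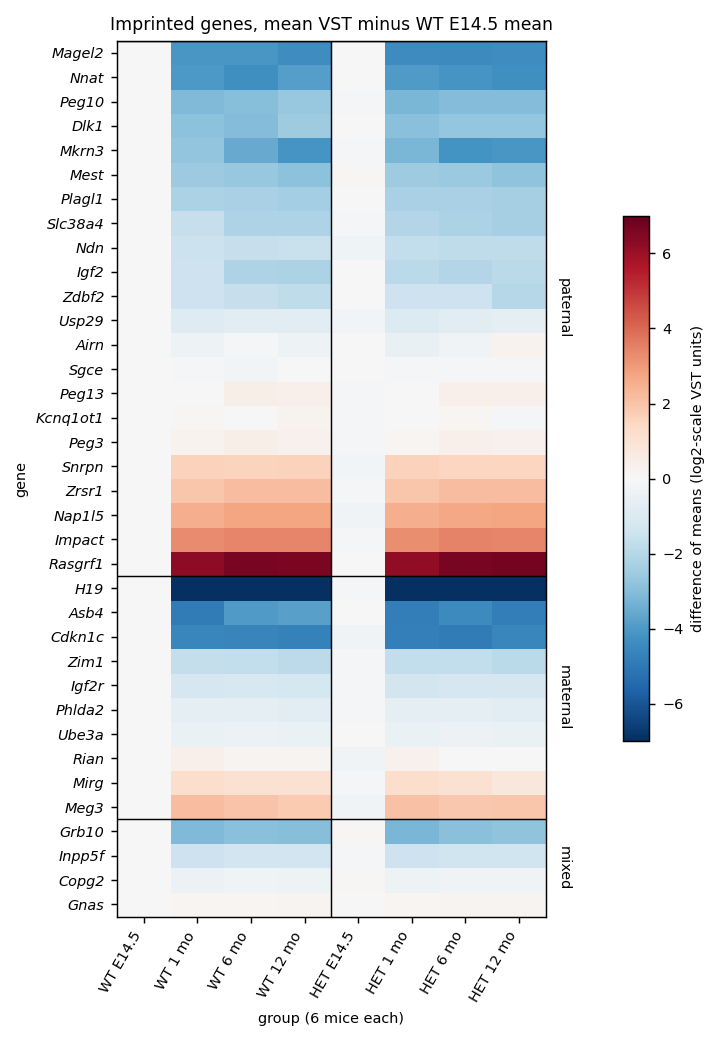
Group means of the 36 imprinted genes minus the WT E14.5 mean (colour, VST units on a log2 scale, from −7 in blue to 7 in red, with larger differences shown at the end colour), with genes on the vertical axis in paternal, maternal and mixed blocks and the 8 groups on the horizontal axis. Blue prevails in the adult columns of both genotypes, while Rasgrf1, Impact, Nap1l5, Zrsr1, Snrpn, Meg3 and Mirg are red there.

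H19 and Igf2 share a control region and enhancers, and CTCF bound to the unmethylated maternal copy of that region keeps the enhancers from Igf2. The control region is shown through its CTCF motif because CHD8 has been linked to CTCF there. A search of the 5000 bases upstream of H19 (chr7:149761434-149764048, minus strand, mm9) for CCGCGNGGNGGCAG on both strands found 3 matches, 2166, 2621 and 3891 bases before its start, all on the strand of H19 and printed in capitals along it. Of all windows of that length upstream of annotated genes, 0.0585% held a match. The motif was chosen for this region, so this share is a description and not a test. Binding was not measured.
chr7:149766214-149766227, minus strand: CCGCGTGGTGGCAG
chr7:149766669-149766682, minus strand: CCGCGCGGTGGCAG
chr7:149767939-149767952, minus strand: CCGCGTGGTGGCAG

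H19, a noncoding RNA of embryonic tissues, had the largest fall. It lay at 12.13, 12.32 and 12.58 in WT embryos and at 4.43, 4.99 and 7.21 in WT mice at 1 month, a difference of −7.07 (SE 0.36, adjusted p = 2.3e-11). It fell further from 1 to 6 months, by 1.78 (SE 0.36, adjusted p = 0.0028), to 2.98, 3.48 and 3.92. In HET mice the same steps were −7.60 (SE 0.19) and −0.98 (SE 0.21), and both were called. Igf2, the fetal growth factor transcribed next to it, lay at 12.41, 12.46 and 12.86 in WT embryos and at 10.49, 11.20 and 11.39 at 1 month, a difference of −1.47 (SE 0.14, adjusted p = 8.3e-08). It was lower again at 6 months in WT mice, at 10.15, 10.23 and 10.86 (−0.67, SE 0.16, adjusted p = 0.0068). Igf2r, the maternally expressed receptor that carries IGF2 to lysosomes, fell by 1.15 (SE 0.08) to 1 month. Airn, the RNA that silences the paternal Igf2r copy, fell by 0.37 (SE 0.17, adjusted p = 0.054) from 4.29 ± 0.17 (SD, n = 6).

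Cdkn1c, Grb10, Plagl1, Phlda2 and Slc38a4 fell to 1 month as well. Cdkn1c, an inhibitor of cyclin-dependent kinases, went from 12.14 ± 0.19 (SD, n = 6) to 7.56 ± 0.23 in WT mice, with no overlap (−4.58, SE 0.11). Grb10, an adaptor that dampens insulin and IGF receptor signaling, went from 13.13 ± 0.22 to 10.05 ± 0.11 (−3.08, SE 0.09). Plagl1, a zinc finger transcription factor linked to the imprinted gene network, fell by 2.21 (SE 0.10). Phlda2, which limits placental growth, lay between 2.76 and 3.24 in WT embryos and between 2.12 and 2.82 at 1 month, near the floor (−0.68, SE 0.19). Slc38a4 fell by 1.64 (SE 0.19). All 5 were called in both genotypes.

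On chromosome 12, the paternal and maternal genes of one cluster moved in opposite directions. Dlk1, a paternally expressed membrane protein related to Notch ligands, lay at 10.34, 10.81 and 11.40 in WT embryos and at 7.12, 7.98 and 8.69 at 1 month (−2.90, SE 0.24, adjusted p = 1.4e-08). Meg3, the maternally expressed noncoding RNA of the cluster, lay at 12.57, 13.30 and 13.68 and then at 15.05, 15.52 and 15.65 (2.16, SE 0.16, adjusted p = 3.2e-09). Neither gene overlapped between the ages. The maternal Mirg rose by 1.25 (SE 0.13) and Rian by 0.37 (SE 0.12, adjusted p = 0.009), and both were also called higher in HET mice. With quantile normalization, Rian was not called in either genotype (0.03 in WT and 0.22 in HET mice).

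In the Peg3 cluster, the zinc finger gene Peg3 was not called in WT mice while its neighbours fell. Peg3 went from 12.46 ± 0.34 (SD, n = 6) to 12.68 ± 0.11 in WT mice (0.22, SE 0.12, adjusted p = 0.11), and in HET mice it was called higher (0.26, SE 0.12, adjusted p = 0.051), though not with quantile normalization (0.01). Usp29, a deubiquitinase that shares its promoter region, fell by 0.88 (SE 0.14), and the maternal zinc finger gene Zim1 fell by 1.69 (SE 0.20). In the Peg10 cluster, Peg10, which derives from a retrotransposon, fell by 3.09 (SE 0.16) while Sgce, the epsilon-sarcoglycan transcribed from the same bidirectional promoter, was 9.30 ± 0.11 and 9.21 ± 0.08 (−0.09, SE 0.06, adjusted p = 0.19). The maternal Asb4, farther along that cluster, fell by 4.89 (SE 0.20).

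Mest, which encodes a hydrolase-like protein, fell by 2.52 (SE 0.13), and Copg2, which overlaps its end on the opposite strand, fell by 0.41 (SE 0.05). Nnat lay at 15.72, 15.96 and 16.08 in WT embryos and at 11.75, 11.94 and 12.19 at 1 month (−4.00, SE 0.08), and its host gene Blcap, on the opposite strand, fell by 0.80 (SE 0.07). Nnat, Nap1l5 and Zrsr1 each lie within another gene on the opposite strand. Nap1l5, a nucleosome assembly protein, rose by 2.56 (SE 0.18) beside its host Herc3, which rose by 2.32 (SE 0.07), whereas Zrsr1, a splicing factor of the U2AF family, rose by 1.95 (SE 0.07) beside its host Commd1, which fell by 1.02 (SE 0.07).

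The largest rises were those of Rasgrf1 and Impact, both paternally expressed. Rasgrf1, a Ras exchange factor of mature neurons, lay at 6.07, 6.59 and 7.11 in WT embryos and at 12.66, 12.83 and 12.97 at 1 month (6.26, SE 0.13, adjusted p = 5.1e-16). Impact, an inhibitor of the kinase GCN2, lay at 9.37, 9.59 and 9.66 and then at 12.79, 12.86 and 12.91 (3.29, SE 0.05). Snrpn rose by 1.62 (SE 0.09), while the other paternal genes of the Prader-Willi domain, Magel2 (−4.06, SE 0.29), Mkrn3 (−2.76, SE 0.11) and Ndn (−1.49, SE 0.11), fell. Lower at 1 month as well were Zdbf2, a zinc finger gene (−1.46, SE 0.14), Inpp5f, a phosphoinositide phosphatase (−1.45, SE 0.08), and Ube3a (−0.47, SE 0.08). Gnas, the stimulatory G protein alpha subunit, was 14.88 ± 0.07 and 15.02 ± 0.05 (0.14, SE 0.06, adjusted p = 0.031), and this direction reversed with quantile normalization (−0.48), which shifted the median of all genes by −0.12. The noncoding RNAs Kcnq1ot1 (0.05, SE 0.17) and Peg13 (0.03, SE 0.08) were not called in WT mice. Peg13 was called higher in HET mice (0.12, SE 0.06, adjusted p = 0.064), with the reverse sign under quantile normalization (−0.25).

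**Figure D4:**
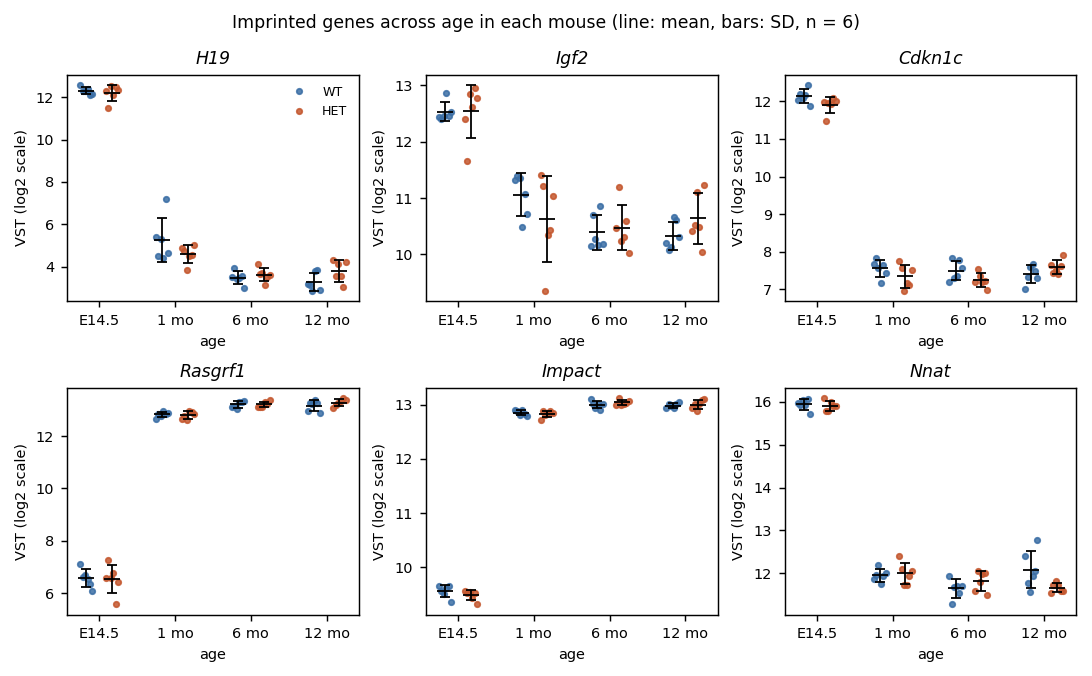
VST values (log2 scale, vertical axis) of 6 imprinted genes in each of 6 WT (blue) and 6 HET (orange) mice at 4 ages (horizontal axis), with the mean as a line and the SD as bars. H19, Igf2, Cdkn1c and Nnat drop from E14.5 to 1 month and Rasgrf1 and Impact rise, with no overlap between these ages in WT mice.

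Most listed genes of the imprint machinery fell over the same interval. The list holds genes that set or remove DNA methylation, such as Dnmt3a and Tet1, besides those that maintain imprints. Over all genes tested in WT mice, 43.4% rose and 42.3% fell in this step. Of 20 of the 23 listed machinery genes that were tested in WT mice, 19 fell and 1, Arid4a, rose (0.20, SE 0.06), with a median of −1.36. Among those that fell were Dnmt1, the maintenance DNA methyltransferase (−1.99, SE 0.08), its partner Uhrf1 (−5.59, SE 0.15), Zfp57, which guards methylated control regions (−3.49, SE 0.10), and Ctcf (−1.07, SE 0.05). All 8 neural progenitor markers fell over this interval, with a median of −4.21, and all 6 oligodendrocyte markers rose, with a median of 7.90, and the part of such cells in these changes was not tested. Between genotypes, limma called 0 of the 20 or 21 machinery genes tested at any age, beside 0.00593% to 0.139% of all genes. At most 2 had an unadjusted p below 0.05, beside 4.56% to 11.6% of all genes. Of 37 other imprinted genes tested, 13 rose and 18 fell from E14.5 to 1 month in WT mice. Between genotypes, 1 of these 37 was called at 12 months, beside 0.0463% of all genes, and 1 in the average over ages, beside 3%. The first was Dio3, a deiodinase gene of the Dlk1-Meg3 cluster (−0.81, SE 0.14, adjusted p = 0.075 in limma). At E14.5, 1 month and 6 months, the difference of Dio3 was 0.21 (SE 0.11), −0.13 (SE 0.12) and 0.50 (SE 0.16). Its average was −0.06 (SE 0.07), and none of these was called. The second was Casd1, a neighbour of Sgce (−0.07, SE 0.02, adjusted p = 0.081 in limma). Of 14 IGF axis genes, 5 rose and 9 fell, among them the RNA-binding protein gene Igf2bp1, which fell by 7.46 (SE 0.17), and Igfbp6, which rose by 5.54 (SE 0.19). In the genotype average over ages, 1 of the 14 was called, beside 3% of all genes. It was Igfbp4 (−0.14, SE 0.04), whose adjusted p in limma, 0.1 when rounded, lay just below the threshold.

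From 1 to 6 months in WT mice, 13 of 35 genes were called, 7 higher and 6 lower, beside 24.6% of all genes. In HET mice, 12 were called, 9 higher and 3 lower, beside 26.8%. Peg13 rose from 13.06, 13.17 and 13.24 to 13.40, 13.53 and 13.64 in WT mice (0.36, SE 0.05, adjusted p = 5.9e-05), with no overlap. Mkrn3 fell from 5.40, 5.74 and 6.10 to 4.47, 5.05 and 5.30 (−0.79, SE 0.16, adjusted p = 0.0032), also with no overlap. Rasgrf1 (0.38, SE 0.06), Zrsr1 (0.20, SE 0.04), Nap1l5 (0.19, SE 0.04), Peg3 (0.18, SE 0.06) and Impact (0.14, SE 0.04) rose by smaller steps. Asb4 rose by 0.89 (SE 0.33, adjusted p = 0.074), and Slc38a4 (−0.51, SE 0.16), Nnat (−0.31, SE 0.09) and Rian (−0.18, SE 0.07) fell, along with H19 and Igf2. In HET mice, the called genes were Mkrn3 (−1.02, SE 0.17), H19, Rasgrf1 (0.41, SE 0.06), Peg13 (0.33, SE 0.05), Grb10 (0.29, SE 0.06), Rian (−0.26, SE 0.09), Zrsr1 (0.24, SE 0.04), Peg3 (0.23, SE 0.04), Impact (0.21, SE 0.04), Nap1l5 (0.19, SE 0.04), Usp29 (0.18, SE 0.06) and Copg2 (0.08, SE 0.03). Asb4 (0.41, SE 0.35) and Airn (0.29, SE 0.22) had larger estimates than several of these and were not called. Several of these calls were lost when 1 of the 12 mice was left out, namely those of Asb4 in 8 of 12 fits (adjusted p up to 0.16), Peg3 in 7 (up to 0.14) and Rian in 7 (up to 0.18) in WT mice, and that of Copg2 in HET mice in 10 (up to 0.20).

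From 6 to 12 months, 0 of 35 genes were called in WT mice, beside 0.00579% of all genes, and 3 had an unadjusted p below 0.05 (6.75% of all genes). The largest estimates were those of Mkrn3 (−0.57, SE 0.17), Dlk1 (0.56, SE 0.36), Nnat (0.44, SE 0.16), Peg10 (0.31, SE 0.23), Magel2 (−0.30, SE 0.26) and Mest (−0.23, SE 0.10). In HET mice, 1 was called, beside 3.43% of all genes. Zdbf2 fell from 10.54, 10.67 and 10.89 to 9.85, 10.22 and 10.34 (−0.52, SE 0.08, adjusted p = 0.0091), with no overlap, and in WT mice it was 10.53 ± 0.33 (SD, n = 6) and 10.38 ± 0.35. The call was lost in the fit of all 48 mice (adjusted p = 0.11). The next largest estimates in HET mice, none of them called, were those of Airn (0.45, SE 0.20), Asb4 (−0.39, SE 0.19), Cdkn1c (0.33, SE 0.10), Mirg (−0.26, SE 0.15) and Mest (−0.21, SE 0.07).

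Over the whole adult span, from 1 to 12 months, 11 genes were called in WT mice, 6 higher and 5 lower (21.4% of all genes), and 17 in HET mice, 10 higher and 7 lower (39.0% of all genes). In WT mice these were H19 (−1.97), Mkrn3 (−1.35), Asb4 (1.09), Igf2 (−0.73), Slc38a4 (−0.54), Mest (−0.35), Peg13 (0.33), Rasgrf1 (0.33), Nap1l5 (0.19), Zrsr1 (0.19) and Impact (0.13), and Peg10 (0.42, SE 0.20) was not called. In HET mice, Mkrn3 (−0.89), H19 (−0.80), Airn (0.74), Zdbf2 (−0.53), Rasgrf1 (0.49) and Mirg (−0.43) had the largest called changes. The others were Peg13 (0.38), Grb10 (0.37), Nnat (−0.33), Mest (−0.32), Rian (−0.32), Nap1l5 (0.24), Zrsr1 (0.23), Usp29 (0.23), Impact (0.18), Peg3 (0.17) and Copg2 (0.12). Without 1 mouse, the call was lost for Impact in 7 of 12 fits (adjusted p up to 0.17), Slc38a4 in 3 (up to 0.11) and Asb4 in 1 (0.10) in WT mice, and for Mirg in 4 (up to 0.13) in HET mice. The class medians were 0.05 for paternal and −0.17 for maternal genes in WT mice, and 0.06 and −0.12 in HET mice.

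Whether the age steps differed between genotypes was tested by an interaction term in the fit of all 48 mice. For each of the 3 adjacent steps, limma called 0 of 35 imprinted genes, beside 0% of all genes for the first and second steps and 0.0578% for the third. At an unadjusted p below 0.05 there were 0, 1 and 4 genes, beside 4.60%, 3.36% and 8.68% of all genes. From 6 to 12 months, the lowest adjusted p values were those of Mkrn3 (0.70, SE 0.20, adjusted p = 0.26) and Nnat (−0.59, SE 0.18, adjusted p = 0.29), where a positive value means a more positive step in HET mice. Both were called without replicate 3 of the 12-month WT mice (adjusted p = 0.096 and 0.062). That mouse had the lowest hypothalamus marker mean of its group. Cdkn1c (0.44, SE 0.18) and Airn (0.63, SE 0.26) were the other 2 with an unadjusted p below 0.05, and Dlk1 (−0.60, SE 0.48) and Asb4 (−0.59, SE 0.50) were among the largest estimates. From 1 to 6 months, the H19 step was −1.78 in WT and −0.98 in HET mice, a difference of 0.80 (SE 0.39) that was not called. The next largest estimates were those of Igf2 (0.51, 95% interval −0.15 to 1.17), Asb4 (−0.48), Dlk1 (0.44), Slc38a4 (0.32) and Mkrn3 (−0.23). From E14.5 to 1 month they were those of H19 (−0.53), Igf2 (−0.44), Mkrn3 (−0.37), Slc38a4 (−0.36), Magel2 (−0.35) and Nap1l5 (0.22), of which Nap1l5 was called without replicate 6 of the E14.5 WT mice (0.42, adjusted p = 0.038).

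Igf2 is made in the brain mainly by the meninges and the choroid plexus, and its level was compared with markers of both. Within each age, and after removal of genotype means, Igf2 followed the mean of 13 meningeal and mesenchymal markers over the 12 mice. Pearson's r was 0.95 at E14.5 (permutation p = 6e-05, adjusted 0.00024), 0.94 at 1 month (permutation p = 4e-05, adjusted 0.00024), 0.79 at 6 months (permutation p = 0.0026, adjusted 0.0053) and 0.92 at 12 months (permutation p = 9e-05, adjusted 0.00024). Spearman's rho was 0.85, 0.81, 0.66 and 0.80, with adjusted permutation p values of 0.0065, 0.0065, 0.048 and 0.0065. Without the 2 mice farthest from the median marker level, r was 0.93, 0.89, 0.91 and 0.81. For the 10 choroid plexus markers, r was 0.07, 0.62, 0.35 and −0.12, and only that at 1 month had an adjusted permutation p below 0.05 (0.047), with an r of 0.48 without the 2 mice and a rho of 0.53 (adjusted permutation p = 0.13). These 8 relations formed one family, and both measures of a mouse come from one library.

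The same question was put to every imprinted gene by the slope of its level on a marker mean within groups, an analysis added after the values were known. Over the 36 adult mice, 4 of 35 genes had a called slope on the meningeal mean, all positive, beside 3.97% of all genes. They were Igf2 (1.24, SE 0.10, adjusted p = 3.5e-11), Cdkn1c (0.46, SE 0.10), Grb10 (0.20, SE 0.06) and Plagl1 (0.23, SE 0.07). Without the 2 mice farthest from their group mean, Igf2 (1.15) and Cdkn1c (0.44) stayed called. At E14.5, Igf2 (0.79, SE 0.09), H19 (0.65, SE 0.09) and Slc38a4 (0.73, SE 0.17) were called, beside 1.04% of all genes. Without the 2 farthest embryos, their slopes were 0.71, 0.53 and 0.88, and none was called (adjusted p = 1 for each).

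On the hypothalamus marker mean, 7 of 35 genes had a called slope in adults, all positive, beside 6.09% of all genes. These were Dlk1 (1.16 VST units per unit of the marker mean, SE 0.16, adjusted p = 4.2e-05), Magel2 (0.78, SE 0.16), Asb4 (0.74, SE 0.23), Peg10 (0.51, SE 0.10), Zim1 (0.49, SE 0.11), Nnat (0.36, SE 0.07) and Ndn (0.17, SE 0.04, adjusted p = 0.037). Without the 2 farthest mice, the slopes of Dlk1 (1.06), Magel2 (1.05), Peg10 (0.52), Zim1 (0.59), Nnat (0.43) and Ndn (0.21) were called and that of Asb4 was not, while Ube3a (−0.16), Igf2r (−0.21) and Copg2 (−0.11) were called as negative. On striatal markers, 0 were called, beside 1.69% of all genes. Without the 2 farthest mice, 3 were called on the striatal mean, all of them also called on the hypothalamus mean, namely Magel2 (1.42, adjusted p = 0.031), Peg10 (0.90, adjusted p = 0.042) and Ndn (0.35, adjusted p = 0.084). At E14.5, Magel2 had a called slope on the hindbrain marker mean (0.21, SE 0.05, adjusted p = 0.035), beside 4.33% of all genes. Without the 2 farthest embryos, its slope was 0.28 and was not called (adjusted p = 0.17).

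**Figure D5:**
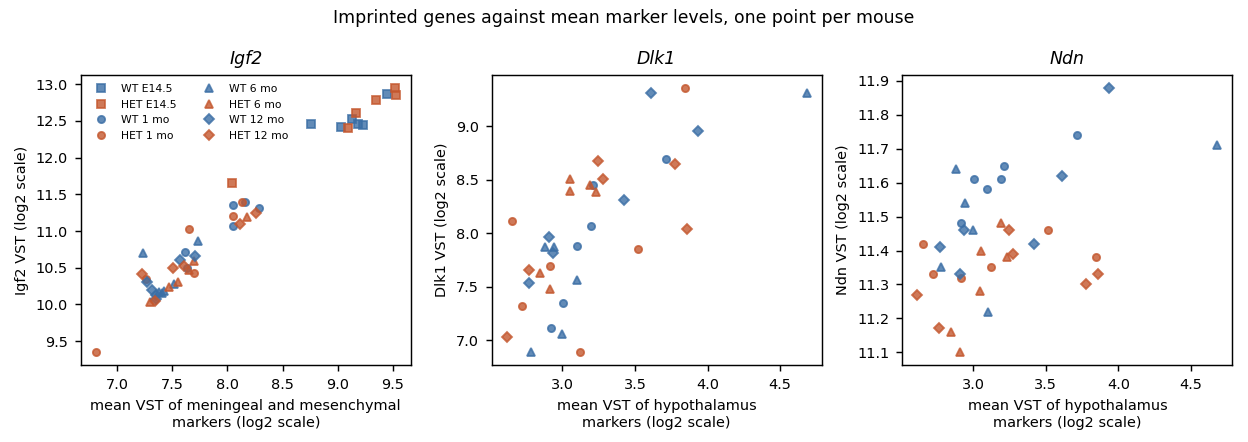
Level of Igf2 against the mean of meningeal and mesenchymal markers in all 48 mice (left), and of Dlk1 (middle) and Ndn (right) against the mean of hypothalamus markers in the 36 adult mice, all in VST units on a log2 scale, with WT in blue, HET in orange and a symbol per age. Igf2 rises with its markers within the embryos and within the adults, Dlk1 rises with a slope of 1.16 and Ndn with a slope of 0.17 within groups.

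The spread between mice of one group also set the imprinted genes apart from each other. The pooled SD over the adult groups was 0.04 for Gnas, 0.06 for Impact and Snrpn and 0.07 for Zrsr1, Inpp5f and Copg2, each at or below the 7.5 percentile of the genes tested. It was 0.72 for Asb4, 0.70 for Dlk1, 0.57 for Magel2, 0.56 for H19 and 0.45 for Igf2, each at or above the 92.8 percentile. The median was 0.170 over the 36 imprinted genes and 0.145 over all genes.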

How the data were processed

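RNA from the cortex of 48 mice (8 groups of 6 separate mice) was sequenced. The labels name a TruSeq kit and the methods a stranded polyA kit, and which was used could not be settled. According to the submitters' processing notes, reads were handled with STAR 2.5.2b and Salmon 0.11.3 on mm9. The deposited values, made by the authors with DESeq2 (the notes give DESeq 1.22.2), are variance-stabilized expression on a log2 scale. In the deposited table, the mean over the 24 mice numbered 1 to 3 equalled that over the 24 numbered 4 to 6 for each gene (largest difference 3.38e-14), but not within single groups. The methods mention a batch correction without naming the batch, and p-values here do not allow for one. Reads per gene are not in the table, so no counting interval is given, and the aligned reads that the study lists per sample served only as a covariate.

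limma 3.58.1 in R 4.3.3, with an intensity trend, was run on all genes with a mean at least 0.5 above the floor, with Benjamini-Hochberg adjustment over all genes tested and calls below 0.1. It was checked on simulated data. Genotypes were compared within each age, ages within each genotype, and steps between genotypes by an interaction term in one fit of 48 mice. Igf2 was related to marker means by two-sided permutation tests with 100000 resamples. The members and lists were chosen with earlier results of these data known. The rule for detail named the called genes, or those without overlap, and the 6 with the largest absolute change per comparison. The average over ages, the hypothalamus covariate, the slopes, the values by replicate set and the window around Ndn were added after the data were seen. Coordinates and sequences come from mm9 with GENCODE vM1, which held 34 of the 36 genes under their symbols.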

Additional observations from a re-analysis of the deposited data

Results flagged for a closer look

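In each group of 6 mice, the highest and lowest mouse was compared with the rest by Dixon's ratio, with 0.625 as the critical value. Of 288 groups tested, 22 had a mouse that stood apart, and chance alone gives about 1 in 20 groups.

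Among the WT embryos, replicate 6 stood apart for several genes. It was low for Ndn, at 12.56 against 13.06 to 13.34 in the others. It was also low for Nap1l5, at 9.36 against 10.30 to 10.74, and for Inpp5f, at 12.64 against 12.97 to 13.15. It was high for Grb10, at 13.53 against 12.94 to 13.16, and had the lowest hindbrain marker mean of the WT embryos (3.08). Replicate 4 was high for Igf2, at 12.86 against 12.41 to 12.53, and it had the highest meningeal marker mean of the WT embryos (9.45).

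Among the HET embryos, replicate 2 was low for Slc38a4, at 6.29 against 7.10 to 7.29, and Cdkn1c, at 11.49 against 11.92 to 12.09. That embryo had the lowest meningeal marker mean of the HET embryos (8.04). Replicate 1 was low for Ube3a, at 11.69 against 12.04 to 12.25.

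At 1 month, H19 was at 7.21 in WT replicate 5 and at 4.43 to 5.39 in the others, and Asb4 was at 6.43 in HET replicate 1 and at 3.73 to 4.60 in the others. That HET mouse had the highest hypothalamus marker mean of its group (3.85). Snrpn was at 13.93 in WT replicate 4, above 13.76 to 13.82.

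At 6 months, Mirg was at 7.97 in WT replicate 3, above 7.30 to 7.53, and Gnas was at 15.04 in HET replicate 4, just below the others at 15.08.

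At 12 months, WT replicate 3 was low for Zim1, at 4.99 against 6.00 to 6.43, and had the lowest hypothalamus marker mean of its group (2.77). WT replicate 5 was low for Slc38a4, at 4.34 against 4.86 to 5.16, and was the one WT mouse of that age with Phlda2 above the floor, at 2.87 against 2.12 to 2.17. Snrpn was at 13.64 in WT replicate 1, below 13.81 to 13.88, and Igf2r at 9.66 in WT replicate 6, below 10.18 to 10.45. In HET mice, Snrpn was at 13.81 in replicate 5 against 13.66 to 13.72, Zdbf2 at 9.85 in replicate 3 against 10.16 to 10.34, Gnas at 15.10 in replicate 3 against 15.06 to 15.07, and Phlda2 at 2.82 in replicate 2 against 2.12 to 2.17. The part of single mice in the comparisons is given by the fits without each mouse in turn.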

How the results depend on the processing

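Of 1901 gene-level values recomputed under settings other than leaving out a mouse, 1843 kept their direction and side of the threshold, 50 lost and 3 gained a call and 5 reversed, and the cause was not tested. Between genotypes at 1 month, 0 imprinted genes were called with a replicate block (Ndn adjusted p = 0.17), without the trend, with the meningeal covariate and in one fit of 48 mice, against 1. One fit of 48 called 1 gene at 6 and 1 at 12 months, against 0, and 0 from 6 to 12 months in HET mice, where the replicate block called 2. Nap1l5 at E14.5 reversed with the hindbrain covariate (0.01), Igf2 at 1 month with the meningeal covariate (0.08), and with quantile normalization Gnas (−0.48 in WT, −0.42 in HET) and Peg13 (−0.25 in HET). The paternal minus maternal median from E14.5 to 1 month, −0.26 in WT and −0.21 in HET mice, was −0.78 and −0.76 with mixed genes assigned to a class, −0.02 and 0.10 with the 1.5 filter and −0.02 and 0.10 in one fit of 48. In HET mice it was 0.02 from 1 to 6 months and 0.04 from 1 to 12 months with mixed genes assigned, against 0.19 and 0.17, and 0.11 with quantile normalization for the latter.

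Beyond the losses given above, leaving out 1 mouse ended the calls from E14.5 to 1 month of Airn in WT mice in 2 of 12 fits (adjusted p up to 0.13) and of Peg13 in HET mice in 4 (up to 0.15). Leaving out each mouse gave 0 to 1 calls between genotypes at 1 month, 0 to 2 at 12 months and 2 to 6 in the average, 1 to 2 from 6 to 12 months in HET mice, and 0 to 1 and 0 to 2 for the first and the last interaction. The paternal minus maternal median in HET mice ranged from −0.27 to 0.11, from 0.12 to 0.24 and from 0.10 to 0.30 for the steps from E14.5 to 1, 1 to 6 and 1 to 12 months.

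Same-numbered WT and HET mice deviated together only at E14.5 (mean correlation 0.226, lowest 0.015, other ages −0.034 to 0.046), so the numbers were not taken as pairs. At E14.5, 7 of 12 embryos were closest to the same number in the other genotype. The E14.5 p-values given above do not allow for this. Over all genes, genotype calls with the replicate block numbered 2 (against 1) in embryos, 13 (against 24) at 1 month, 30 (against 16) at 6 months and 2 (against 8) at 12 months. It called 0 from 6 to 12 months in WT mice, against 1, and 6 for the last interaction, against 10. Genes at an unadjusted p below 0.05 at E14.5 rose from 769 to 1995. Its other counts over all genes moved by less than 1.5 times. Over all genes, calls between genotypes ranged over the settings from 0 to 93 at E14.5, 8 to 37 at 1 month, 2 to 30 at 6 months and 1 to 520 at 12 months, against 1, 24, 16 and 8, with the highest at E14.5 and 12 months in one fit of 48. From 6 to 12 months they ranged from 0 to 7 in WT and 100 to 654 in HET mice, against 1 and 592, and from 6 to 9 for the interaction, against 10. Genes near the floor, Phlda2 above all, are limited to what the table shows, since it holds no counts.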
